A study of Homo sapiens with 20 samples.

Results

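The mitochondrial ribosomal protein (MRP) genes described here are the nuclear genes whose symbols run MRPL or MRPS followed by a number and, in some, a letter. Of the 45372 gene symbols in the deposited expression tables, 78 matched, 49 of them MRPL genes, named for the large ribosomal subunit, and 29 MRPS genes, named for the small subunit. RNA was sequenced from HEK293T cells, an immortalised human embryonic kidney line, after small interfering RNA (siRNA) against HUWE1, a large HECT-type ubiquitin ligase, or non-targeting (NT) siRNA. The 5 groups of 4 libraries were HUWE1 siRNA set 1 with NT siRNA set 1, and HUWE1 siRNA set 2 and HUWE1 siRNA set 3 with 1 shared group, NT siRNA sets 2 and 3. The labels of the first pair of groups give no set number, and they are called set 1 here. The sources used here do not say how the sets differ. All groups are the same cell line, every group received an siRNA, and the labels call the libraries biological replicates without saying whether they came from separate cultures, so p-values measure the spread between these libraries.

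Mitochondrial ribosomes translate the few proteins encoded by mitochondrial DNA, which are core subunits of the respiratory chain and of ATP synthase. Their rRNA comes from the mitochondrial genome, whereas their proteins are encoded in the nucleus, made on cytosolic ribosomes and imported. Many of the proteins descend from those of bacterial ribosomes, and others are found only in mitochondria. Some symbols do not match the structure. The products of MRPS30 and MRPS18A are built into the large subunit, and the product of MRPS36 is a component of the 2-oxoglutarate dehydrogenase complex of the citric acid cycle, not a structural ribosomal protein.

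Expression is given in TPM, a length-scaled share of all transcripts in a library. The sequencing depth behind the TPM values is unknown, so no counting interval was computed. Fold changes are HUWE1 siRNA over NT siRNA on the log2(TPM + 1) scale, and a gene counts as called where limma's p, adjusted by Benjamini and Hochberg's method over every gene tested in its table, lies under 0.05. HUWE1 itself averaged 85.0 ± 1.72 TPM in HUWE1 siRNA set 1 and 157 ± 3.57 TPM in NT siRNA set 1 (SD, n = 4 each), which is 54.1% of its control. The figures were 57.9% in set 2 and 51.9% in set 3, and in each set the exact two-sided permutation test of 4 against 4 libraries gave p = 0.0286, the smallest it allows. The HEK293 markers NEFM and VIM were present in every library at 94.3 to 194 TPM and 472 to 913 TPM, whereas the blood cell gene HBB was at 0 and PTPRC did not exceed 0.0753 TPM in any library. The 5 HEK293 markers summed to 681 to 719.5 TPM in HUWE1 siRNA set 1 and to 811 to 859 TPM in NT siRNA set 1, and 4 of the 5 were called lower there. In set 3, NEFM and NEFL were called lower, and the marker sums were 1083 to 1176 TPM in HUWE1 siRNA set 3 and 957 to 1141 TPM in NT siRNA sets 2 and 3. The 5 fibroblast markers summed to 18.9 to 20.6 TPM in HUWE1 siRNA set 1 and to 16.3 to 18.0 TPM in NT siRNA set 1, without overlap, and LUM was called higher (log2 fold change 0.44, limma adjusted p = 0.0111). The part of these markers in the results was not tested. In bulk libraries, fewer cells with a transcript and less of it per cell cannot be told apart.

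All 78 genes passed the filter on low values in both tables, which asks for 4 or more libraries with at least 1 TPM. Averaged over the NT libraries of both tables, MRPL12 had the highest level at 541 TPM. It encodes the stalk protein that contacts translation factors. MRPL51, MRPL41 and MRPL14 followed at 325, 321 and 309 TPM, levels that lay close to each other. MRPL42 was lowest at 15.4 TPM, with MRPS18C at 16.1, MRPL48 at 22.9 and MRPS22 at 23.5 TPM. The median level was 88.0 TPM over the MRPL genes and 72.4 TPM over the MRPS genes, on the per-length TPM scale. The genes lie on 21 chromosomes in GENCODE release 29 (GRCh38). By that annotation 34 of them have named pseudogene copies, 23 overlap another gene on their own strand and 38 overlap one on the opposite strand. The library kit was stranded, but the sources used here do not say whether counting used strand, so values of these genes could include reads of a copy or an overlapping neighbour.

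MRP promoters were searched for letters of NRF1, the ETS factor GABPA and YY1. These transcription factors are known to act on nuclear genes of mitochondrial proteins. Promoters of other such genes were not searched as a set. RefSeq promoters (GRCh38.p14, 250 bases before to 50 bases after the start) were matched for 69 members. The entries of MRPL10, MRPL13, MRPL15, MRPL2, MRPL21, MRPL23, MRPL35, MRPS28 and MRPS36 were not matched. On either strand, the ETS letters CCGGAAG were found in 29 of the 69 promoters (42%), against 10.7% of all 27305 promoters of the same length. The YY1 letters, which are the 11 bases in capitals in the MRPS18B window printed next, were found in 10 of 69 (14.5%), against 0.916% of all promoters. The NRF1 letters, which are the 10 bases in the first run of capitals of the MRPL36 promoter printed after it, with any base allowed at the fifth, were found in 8 of 69 (11.6%), against 6.28%. None of these motifs contains another, and a match describes the letters only. The 10 windows with the YY1 letters are shown because the largest fall of set 1 and 4 other falls are among their genes. They are given 5′ to 3′ on the strand of the gene, with the motif in capitals. In 9 of them it begins 7 to 36 bases into the transcript, and in MRPL36 it lies before the start as the reverse complement.
MRPS18B (chr6:30617854-30617883, plus strand): gcgtacgtcAAGATGGCGGCgtctgtatta
MRPS10 (chr6:42217832-42217861, minus strand): gggaccggcAAGATGGCGGCgcggacagcg
MRPL36 (chr5:1799855-1799884, minus strand): cccccccccGCCGCCATCTTccttcctggc
MRPL22 (chr5:154941093-154941122, plus strand): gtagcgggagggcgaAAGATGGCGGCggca
MRPS18A (chr6:43687762-43687791, minus strand): aggtttttgAAGATGGCGGCcctcaaggct
MRPL38 (chr17:75904858-75904887, minus strand): gccggagggAAGATGGCGGCgccctggtgg
MRPL46 (chr15:88467360-88467389, minus strand): ggagaacgaAAGATGGCGGCgcccgtaagg
MRPL50 (chr9:101398575-101398604, minus strand): atctcatcgAAGATGGCGGCgcgatctgtg
MRPS24 (chr7:43869478-43869507, minus strand): gcttggcccAAGATGGCGGCctccgtgtgc
MRPS30 (chr5:44808951-44808980, plus strand): tcgcgggcaAAGATGGCGGCggccaggtgt

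The 120 bases before the RefSeq start are shown for 3 further cases, chosen after their values were seen. MRPL36 holds NRF1 and YY1 letters, MRPS34 holds the ETS letters 3 times, and MRPL43, which rose in set 1, holds them 1 time. Capitals mark these letters on either strand.
MRPL36 (chr5:1799838-1799957, minus strand): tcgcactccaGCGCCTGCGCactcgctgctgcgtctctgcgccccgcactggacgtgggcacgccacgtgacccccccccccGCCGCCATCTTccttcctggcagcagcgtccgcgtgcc
MRPS34 (chr16:1773135-1773254, minus strand): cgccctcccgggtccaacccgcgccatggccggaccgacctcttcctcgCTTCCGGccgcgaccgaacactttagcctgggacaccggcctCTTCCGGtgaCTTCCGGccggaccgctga
MRPL43 (chr10:100987498-100987617, minus strand): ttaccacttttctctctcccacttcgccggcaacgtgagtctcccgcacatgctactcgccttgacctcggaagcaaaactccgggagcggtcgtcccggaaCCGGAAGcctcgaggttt

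In set 1, 29 of the 78 MRP genes fell and 7 rose, beside 30.3% of all genes called in either direction. The share that fell was 37.2%, against 17.9% of all 16057 genes tested, and the share that rose was 8.97%, against 12.3%. These backgrounds were not matched for level, and they include genes expressed at lower levels than any MRP gene. When the filter was raised to an average of at least 5 TPM, 37.8% of the genes left were called in either direction. Of the MRP genes 29 then fell and 8 rose. That background was not split by direction. The changes were small. Log2 fold changes ran from -0.35 to 0.21, with a median of -0.06 over the MRP genes and -0.01 over all genes tested. The TPM values of the 4 HUWE1 siRNA libraries lay wholly below those of the 4 NT siRNA libraries for 28 members, a share to be read beside 18.4% of all genes, and wholly above them for 10 members, beside 13.3% of all genes. Under median-of-ratios scaling the split was 23 lower and 10 higher. All 78 genes together summed to 7812, 8012, 7931 and 8033 TPM in HUWE1 siRNA set 1 and to 8403, 8109.6, 8299.6 and 8432 TPM in NT siRNA set 1. These sums did not overlap. The share of TPM taken by mitochondrially encoded genes, which scales all other TPM values, was 25.1% to 26.2% in HUWE1 siRNA set 1 and 24.3% to 25.8% in NT siRNA set 1, and without these genes 26 members fell and 9 rose.

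**Figure D1:**
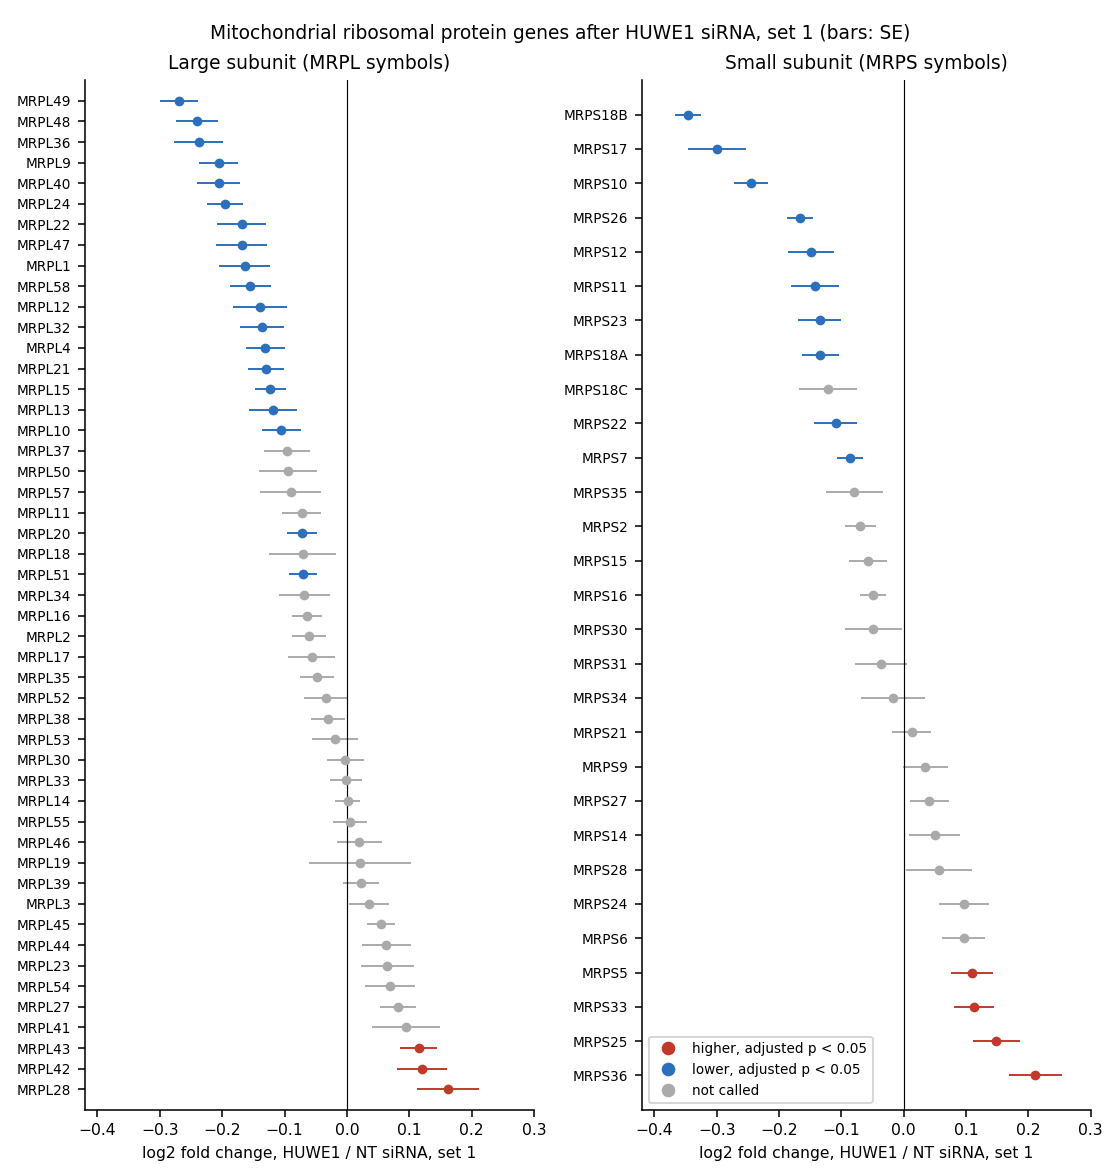
Log2 fold change (x axis, HUWE1 siRNA over NT siRNA, set 1, on log2(TPM + 1)) of each of the 49 MRPL genes (left) and 29 MRPS genes (right), with the standard error as a bar. Blue points are the 29 genes called lower and red points the 7 called higher in limma, and both panels run from falls to rises with MRPS18B at -0.35 and MRPS36 at 0.21 as the extremes.

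Genes of both subunits were among those that changed. Of the 49 MRPL genes 19 fell (38.8%) and 3 rose, and of the 29 MRPS genes 10 fell (34.5%) and 4 rose. Their median log2 fold changes were -0.07 and -0.05. The difference of these medians, large minus small, was -0.02, and it was 0.00167 without NT siRNA set 1 replicate 1 and -0.00819 without NT siRNA set 1 replicate 2. With MRPS30 and MRPS18A counted in the large subunit and MRPS36 left out, 20 of 51 large subunit genes fell and 3 rose, and 9 of 26 small subunit genes fell and 3 rose. The summed TPM of the MRPL genes was 2.18 to 2.20 times that of the MRPS genes in HUWE1 siRNA set 1 and 2.13 to 2.19 times in NT siRNA set 1, so the ranges overlapped. Among large subunit proteins, 14 of the 30 listed with a homologue in bacterial ribosomes fell and 1 rose. Of the 21 listed without one, 6 fell and 2 rose. The 21 include MRPS18A, which fell and is related to bacterial ribosomal protein S18, so the split depends on where it is placed. Among small subunit proteins, 6 of the 17 with a homologue fell and 1 rose, and 3 of the 9 without one fell and 2 rose. No test of these differences was made.

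The largest fall was that of MRPS18B, on chromosome 6 (30617709 to 30626395), whose product is 1 of 3 human paralogues related to bacterial ribosomal protein S18. It stood at 149, 150.3, 149 and 149.98 TPM in HUWE1 siRNA set 1, against 192, 185, 191 and 194 TPM in NT siRNA set 1. The HUWE1 siRNA values lay within about 1 TPM of each other and far below every NT value. The log2 fold change was -0.35 (SE 0.02, limma adjusted p = 1.31e-05). Its paralogue MRPS18A, in the large subunit, fell by 0.13 on the log2 scale (limma adjusted p = 0.00852). The third paralogue, MRPS18C, had a log2 fold change of -0.12 and was not called (limma adjusted p = 0.0737).

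Other small subunit genes fell with it. MRPS17, the homologue of bacterial S17, stood at 61.1, 53.6, 57.5 and 53.1 TPM in HUWE1 siRNA set 1, against 70.3, 65.9, 70.2 and 71.6 TPM in NT siRNA set 1, a log2 fold change of -0.30 (limma adjusted p = 0.00135). MRPS10, the homologue of bacterial S10, stood at 73.7, 71.8, 74.6 and 72.7 TPM in HUWE1 siRNA set 1, against 83.6, 89.6, 87.4 and 87.2 TPM in NT siRNA set 1, a log2 fold change of -0.24 (limma adjusted p = 0.000267). In both genes every HUWE1 siRNA library was below every NT library. MRPS26, a protein with no bacterial homologue and the fifth most abundant of the 78 transcripts, stood at 234, 239, 237 and 242 TPM in HUWE1 siRNA set 1, against 263, 265, 272 and 267 TPM in NT siRNA set 1. Its log2 fold change was -0.17 (limma adjusted p = 0.000546).

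In the large subunit, MRPL49, a protein with no bacterial homologue, fell furthest. It stood at 73.3, 69.1, 72.3 and 68.3 TPM in HUWE1 siRNA set 1, against 85.6, 86.1, 87.4 and 82.5 TPM in NT siRNA set 1, a log2 fold change of -0.27 (SE 0.03, limma adjusted p = 0.000305). MRPL48, also without a bacterial homologue and among the least abundant members, stood at 18.6, 18.4, 18.8 and 19.4 TPM in HUWE1 siRNA set 1, against 22.7, 22.9, 22.5 and 21.3 TPM in NT siRNA set 1, a log2 fold change of -0.24. MRPL36, a small zinc-binding protein, stood at 109.8, 105, 109.8 and 97.5 TPM in HUWE1 siRNA set 1, against 126, 125, 127 and 119.8 TPM in NT siRNA set 1, also a log2 fold change of -0.24. In none of these 3 genes did the groups overlap. MRPL9 and MRPL40 each had a log2 fold change of -0.21 and MRPL24 one of -0.20. MRPL22 and MRPL47, which like MRPL24 lie near the exit of the peptide tunnel, each had one of -0.17. The abundant MRPL12 and MRPL51 fell by 0.14 and 0.07 on the log2 scale, with limma adjusted p = 0.0373 and 0.036, whereas MRPL14 had a log2 fold change of 0.00 and MRPL41 one of 0.09, neither called.

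None of the 7 rises of set 1 reached the size of the 6 largest falls. MRPS36, the dehydrogenase component, rose most. It stood at 30.2, 28.9, 27.8 and 28.0 TPM in HUWE1 siRNA set 1, against 24.5, 23.0, 25.9 and 25.5 TPM in NT siRNA set 1, a log2 fold change of 0.21 (limma adjusted p = 0.00501). The groups did not overlap, and MRPS36 has 5 named pseudogene copies. Among the 6 largest falls MRPS17 has 4, MRPS18B, MRPS10 and MRPL49 have 2 each, MRPL48 has 1 and MRPL36 has 0. MRPL28, the homologue of bacterial L28, followed with 70.4, 81.6, 73.8 and 73.1 TPM in HUWE1 siRNA set 1, against 70.3, 63.1, 64.5 and 68.6 TPM in NT siRNA set 1, where 1 HUWE1 siRNA value all but met the highest NT value. MRPS25 had a log2 fold change of 0.15, MRPL42 one of 0.12, and MRPL43, MRPS33 and MRPS5 one of 0.11 each.

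By level, the falls and rises were spread unevenly. Of the 26 members with the highest TPM in the NT libraries 13 fell and 0 rose in limma. At an unadjusted p under 0.05, 17 were lower and 1 higher, beside 24.2% and 17.7% of all genes tested at any level. Of the next 26, 8 fell and 2 rose, and of the 26 with the lowest TPM 8 fell and 5 rose. Of the 36 calls in set 1, 25 held under each of the 15 alternatives, 22 of them lower and 3 higher (MRPL43, MRPS25 and MRPS36). The calls of MRPL10, MRPL12, MRPL13, MRPL20, MRPL28, MRPL42, MRPL51, MRPS11, MRPS22, MRPS33 and MRPS5 were each lost in at least 1 alternative, and none of the 36 changed sign. Their highest limma adjusted p lay between 0.0557 for MRPS11 and 0.144 for MRPL20. Of the 36 calls 29, 31, 27 and 26 remained without HUWE1 siRNA set 1 replicates 1, 2, 3 and 4, and 29, 30, 27 and 32 remained without NT siRNA set 1 replicates 1, 2, 3 and 4.

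**Figure D2:**
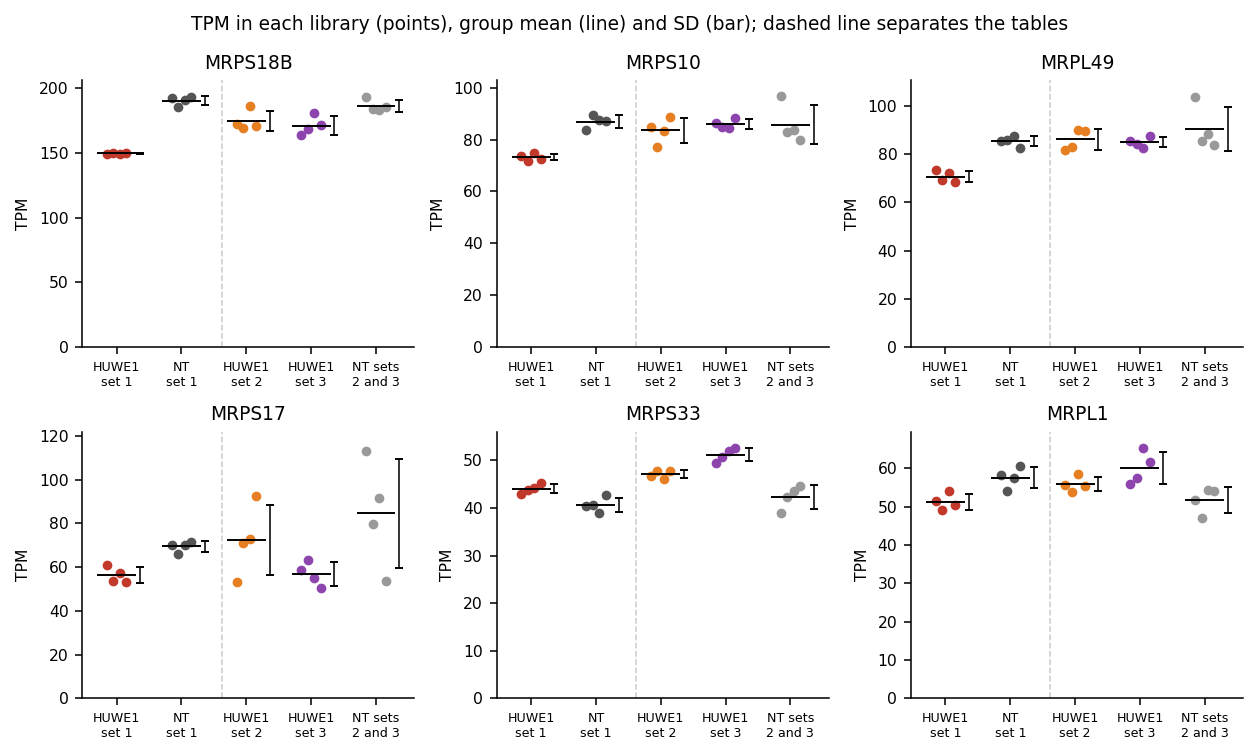
TPM (y axis, from 0) of MRPS18B, MRPS10, MRPL49, MRPS17, MRPS33 and MRPL1 in each library of the 5 groups, with the group mean as a line and the SD as a bar. In set 1 the HUWE1 siRNA libraries of the first 4 genes lie below all NT libraries, and MRPS33 lies above its NT libraries in all 3 sets.

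The cytosolic ribosome was set beside the mitochondrial one. Of 82 cytosolic ribosomal protein genes tested in set 1, 33 rose (40.2%, against 12.3% of all genes) and 4 fell (4.88%, against 17.9%). Their median log2 fold change was 0.08. Their summed TPM was 93916 to 100708 in HUWE1 siRNA set 1 and 90584 to 95220.0 in NT siRNA set 1, ranges that overlapped. In sets 2 and 3 the medians of the cytosolic genes were 0.12 each, with 0 called in set 2 and 17 called higher in set 3. The share called higher in set 3 was 20.7%, against 7.45% of all genes. In set 2, 38 of the cytosolic genes were higher and 0 lower at an unadjusted p under 0.05, beside 5.05% and 3.78% of all genes.

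**Figure D3:**
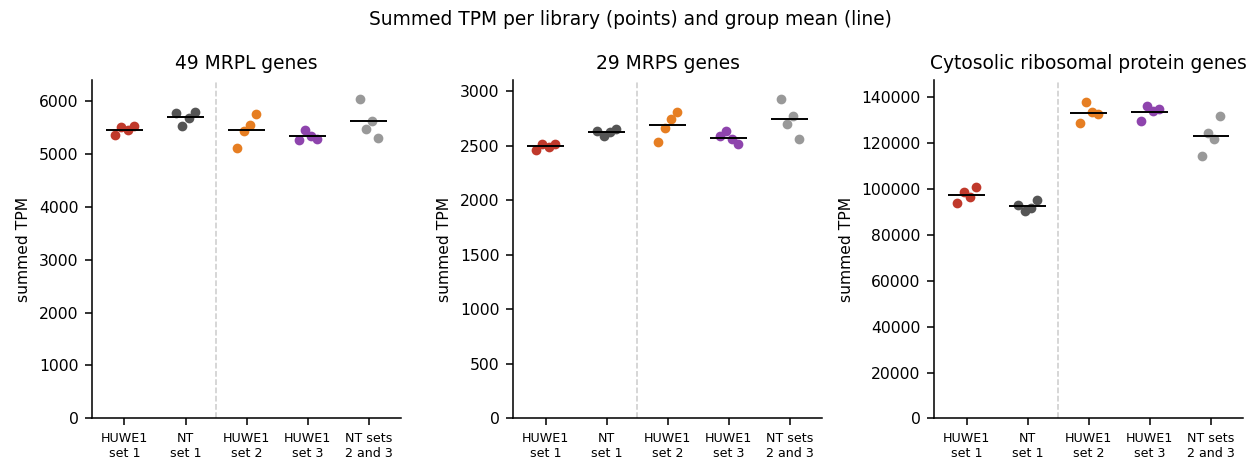
Summed TPM (y axis, from 0) of the 49 MRPL genes, the 29 MRPS genes and the cytosolic ribosomal protein genes in each library, with the group mean as a line. The MRPL and MRPS sums of HUWE1 siRNA set 1 lie below those of NT siRNA set 1, but the nearest MRPL sums, 5519 and 5522 TPM, all but meet. In sets 2 and 3 the groups overlap for MRPL and MRPS.

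Some MRP genes begin close to another coding gene, and these neighbours were compared. By the GENCODE starts, 28 of the 78 begin within 1000 bases of the start of a coding gene on the opposite strand, at a median distance of 76 bases. Of these 28 members 14 fell and 1 rose in set 1, and of the other 50, 15 fell and 6 rose. They form 29 member and neighbour combinations, among them MRPL46 and MRPS11, which neighbour each other, and in 13 of the 29 the annotated genes overlap. In 4 combinations both genes were called in the same direction and in 4 in opposite directions. MRPL49 had a log2 fold change of -0.27 and its neighbour FAU, which encodes a cytosolic ribosomal protein fused to a ubiquitin-like protein, one of 0.23. FAU stood at 561, 684, 615 and 655 TPM in HUWE1 siRNA set 1, against 553, 496, 504 and 591 TPM in NT siRNA set 1, where the groups overlapped by 1 library. MRPL36 had a log2 fold change of -0.24 and NDUFS6, a subunit of respiratory complex I, one of 0.17. Their GENCODE starts are 34 bases apart, but the RefSeq start of MRPL36, before which its printed promoter lies, is more than 1000 bases from that of NDUFS6 in GENCODE.

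The 2 remaining opposite combinations both pair an MRP gene with another gene whose product acts in mitochondria. MRPL43 had a log2 fold change of 0.11 and TWNK, the helicase of mitochondrial DNA, one of -0.30. TWNK stood at 84.3, 86.2, 82.7 and 77.2 TPM in HUWE1 siRNA set 1, against 107, 102, 102 and 97.7 TPM in NT siRNA set 1, without overlap. MRPS12, the homologue of bacterial S12 at the decoding site, had a log2 fold change of -0.15, and SARS2, the mitochondrial seryl-tRNA synthetase, one of 0.35. SARS2 stood at 31.0, 40.2, 34.8 and 38.8 TPM in HUWE1 siRNA set 1, against 29.1, 27.4, 27.0 and 28.6 TPM in NT siRNA set 1. The annotation has MRPL49, MRPL43 and MRPS12 overlapping these neighbours on the opposite strand, whereas MRPL36 and NDUFS6 do not overlap. The neighbours called lower together with their MRP gene were IGHMBP2 beside MRPL21, NCAPD2 beside MRPL51, OAZ3 beside MRPL9 and PPP1R10 beside MRPS18B. MRPS11 fell by 0.14 on the log2 scale, and MRPL46, 34 bases away, had a log2 fold change of 0.02 and was not called.

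The promoter letters were set beside these calls. Of the 10 members with YY1 letters 5 fell and 0 rose in set 1 in limma (5 lower and 1 higher at an unadjusted p under 0.05), with a median log2 fold change of -0.11. Of the 59 without them 20 fell and 6 rose, with a median of -0.06. The 5 that fell were MRPS18B, MRPS10, MRPL36, MRPL22 and MRPS18A, and MRPL38, MRPL46, MRPL50, MRPS24 and MRPS30 were not called. Of the 29 members with ETS letters 12 fell and 3 rose, and of the 40 without them 13 fell and 3 rose. Of the 8 with NRF1 letters 1 fell and 1 rose.

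The other genes of mitochondrial translation were followed as lists, beside 17.9% of all genes called lower and 12.3% called higher in set 1. Of 26 genes of mitoribosome assembly and rRNA modification 8 fell and 3 rose in set 1, with a median log2 fold change of -0.01, beside -0.01 over all genes. MRM1, a methyltransferase of mitochondrial rRNA, fell most, with 8.58, 9.13, 9.17 and 10.2 TPM in HUWE1 siRNA set 1, against 14.5, 13.8, 12.97 and 14.6 TPM in NT siRNA set 1 (log2 fold change -0.54, limma adjusted p = 0.000203). MRM3, a related methyltransferase, had a log2 fold change of -0.25, DDX28, a helicase of large subunit assembly, one of -0.30, and MTG1, a GTPase of large subunit assembly, one of 0.26. Of 15 translation factors 2 fell (TSFM and TACO1) and 1 rose (TUFM, the mitochondrial elongation factor Tu). Of 8 tested genes listed as mitoribosome proteins outside the older MRP naming, which include the members MRPL57 and MRPL58, PTCD3 rose by 0.14 on the log2 scale and MRPL58, a peptidyl-tRNA hydrolase built into the large subunit, fell by 0.15.

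Mitochondrially encoded transcripts and regulators of nuclear mitochondrial genes were read in the same way, beside the same shares of all genes. Of 15 mitochondrially encoded genes in set 1, MT-ATP6 rose by 0.09 on the log2 scale and 0 fell in limma. At an unadjusted p under 0.05 the counts were 2 higher and 0 lower, beside 17.7% and 24.2% of all genes. Of 7 genes of mitochondrial DNA transcription and maintenance TWNK fell and POLG, the mitochondrial DNA polymerase, rose by 0.13. Among 11 transcription factors and coactivators, PPRC1, a coactivator of the PGC-1 family, fell with 136, 136, 133 and 131 TPM in HUWE1 siRNA set 1, against 160.4, 164, 160.6 and 159 TPM in NT siRNA set 1 (log2 fold change -0.27, limma adjusted p = 7.7e-05). HCFC1, a cofactor of GABPA and other factors, had a log2 fold change of -0.21 and MYC one of -0.18, whereas the nuclear receptor gene ESRRA had one of 0.31.

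In set 2, 0 of the 78 MRP genes were called in limma, where 2 of 15860 genes tested (0.0126%) were called. At an unadjusted p under 0.05, 3 members were higher (MRPS33, MRPL21 and MRPL30) and 0 were lower, beside 5.05% and 3.78% of all genes. The groups did not overlap for 1 member, MRPS33, beside 1.99% of all genes higher and 1.71% lower without overlap. Log2 fold changes ran from -0.20 to 0.18, with a median of -0.03 over the MRPL genes and 0.00 over the MRPS genes, beside -0.00 over all genes. The 78 genes summed to 7639.9, 8094, 8281 and 8556 TPM in HUWE1 siRNA set 2 and to 8965, 8172, 8399 and 7865 TPM in NT siRNA sets 2 and 3, which overlapped. The standard error of a member's fold change was 0.04 to 0.20 here and 0.02 to 0.08 in set 1.

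In set 3, 4 MRP genes rose and 1 fell, which is 5.13% and 1.28% of the members, against 7.45% and 4.15% of all genes tested. These are few genes, and no test of members against all genes was made. At an unadjusted p under 0.05, 11 members were higher and 15 lower, beside 19.9% and 14.6% of all genes. There the share of members that were lower lies above that of all genes, and the share that were higher lies below it. These differences were not tested either. The groups did not overlap for 3 members that were higher (MRPS33, MRPL1 and MRPL21) and 2 that were lower (MRPS18B and MRPL19), beside 11.2% and 6.03%. The median log2 fold change was -0.08 over the MRPL genes and -0.00 over the MRPS genes, beside 0.01 over all genes, a difference of -0.08 that was -0.05 without NT siRNA sets 2 and 3 replicate 1. The 78 genes summed to 7853, 8086, 7899 and 7797 TPM in HUWE1 siRNA set 3, where 2 of the 4 sums lay within the range of the shared NT libraries given for set 2 and 2 just below it. In set 3 against set 2, 0 members were called in limma, beside 82 genes (0.517%), and at an unadjusted p under 0.05, 3 were higher and 3 lower, beside 10.1% and 5.66% of all genes.

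MRPS33, a small subunit protein with no bacterial homologue on chromosome 7 (141002610 to 141015228), rose in set 3. It stood at 49.5, 50.8, 51.9 and 52.7 TPM in HUWE1 siRNA set 3, against 38.9, 42.2, 43.5 and 44.7 TPM in NT siRNA sets 2 and 3 (log2 fold change 0.27, SE 0.04, limma adjusted p = 0.00933). Its values were 46.8, 47.7, 46.1 and 47.8 TPM in HUWE1 siRNA set 2 against the same controls (log2 fold change 0.15, limma adjusted p = 0.453). In set 1 they were 43.0, 43.8, 44.2 and 45.3 TPM with HUWE1 siRNA and 40.4, 40.6, 39.0 and 42.7 TPM with NT siRNA (log2 fold change 0.11, limma adjusted p = 0.0246). Every HUWE1 siRNA library was above every NT library of its own table in all 3 sets, although sets 2 and 3 share their controls. Its call in set 3 held under each of the 16 alternatives, the highest limma adjusted p being 0.0437, whereas its call in set 1 was lost in 4 of 15. MRPS33 has 3 named pseudogene copies, and MRPL42, described next, has 4.

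The other 4 calls of set 3 were each lost under 10 or more of the 16 alternatives, leaving out NT siRNA sets 2 and 3 replicate 1, 2 or 3 among them. MRPL42 stood at 20.5, 19.4, 23.3 and 22.4 TPM in HUWE1 siRNA set 3, against 15.8, 18.0, 18.3 and 19.7 TPM in NT siRNA sets 2 and 3 (log2 fold change 0.24, limma adjusted p = 0.0473). Its groups overlapped by a single pair of libraries. MRPS26 stood at 270.1, 267, 249 and 238 TPM in HUWE1 siRNA set 3, against 346, 299, 301 and 269 TPM in NT siRNA sets 2 and 3 (log2 fold change -0.24, limma adjusted p = 0.0426). MRPS33 and MRPL42 were thus called higher in both set 1 and set 3, and MRPS26 lower in both. Of 15296 genes that both tables tested, 2.47% were called higher in both and 2.05% lower in both.

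MRPL1 and MRPL13 were called in opposite directions in sets 1 and 3, both lower in set 1 and higher in set 3, as were 0.431% of the genes tested in both. For 0 members the directions were the other way round, beside 0.17% of those genes. MRPL1, the protein of the stalk beside the tRNA exit site, stood at 51.5, 49.01, 54.1 and 50.5 TPM in HUWE1 siRNA set 1, against 58.2, 54.1, 57.5 and 60.6 TPM in NT siRNA set 1 (log2 fold change -0.16, limma adjusted p = 0.0128). In HUWE1 siRNA set 3 it stood at 55.8, 57.5, 65.3 and 61.7 TPM, against 51.8, 47.1, 54.3 and 54.0 TPM in NT siRNA sets 2 and 3 (log2 fold change 0.21, limma adjusted p = 0.0401). In neither set did the groups overlap, though in set 1 the nearest values of the groups were about equal. MRPL13, the homologue of bacterial L13, had log2 fold changes of -0.12 in set 1 and 0.25 in set 3, with limma adjusted p = 0.0418 and 0.0493. The difference between the sets was not tested, because the tables were normalized separately.

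**Figure D4:**
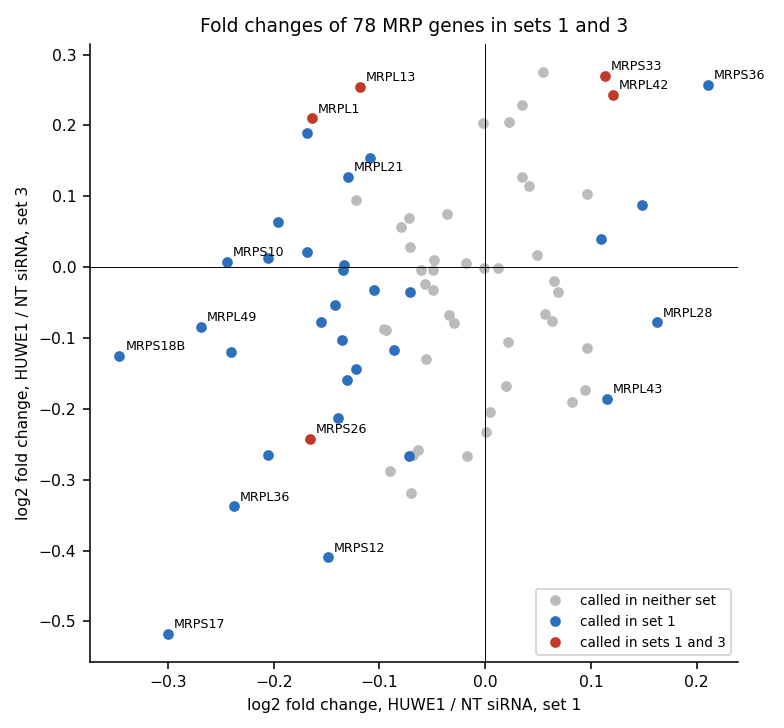
Log2 fold change of each of the 78 MRP genes in set 1 (x axis) and in set 3 (y axis), HUWE1 siRNA over NT siRNA on log2(TPM + 1). Red points are the 5 genes called in both sets, blue points were called in set 1 alone, and 34 genes lie in the lower left part and 12 in the upper right.

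Across the 78 genes 34 had negative and 12 positive log2 fold changes in both set 1 and set 3, and 32 differed in sign, 18 of them negative in set 1 and positive in set 3. Pearson's r between the log2 fold changes was 0.32 and Spearman's rho 0.24, over genes that share libraries within each set. The most negative log2 fold changes of set 3 belonged to MRPS17 at -0.52 and MRPS12 at -0.41, but neither was called (limma adjusted p = 0.0927 and 0.101). The most positive of those not called belonged to MRPL45 at 0.28 and MRPS36 at 0.26. MRPS36 stood at 45.9, 47.5, 49.2 and 49.3 TPM in HUWE1 siRNA set 3, against 31.9, 40.9, 40.8 and 47.8 TPM in NT siRNA sets 2 and 3, a spread of the controls that overlapped the HUWE1 siRNA values. MRPS17 stood at 58.9, 63.1, 55.2 and 50.4 TPM in HUWE1 siRNA set 3, against 113, 79.8, 91.5 and 53.7 TPM in NT siRNA sets 2 and 3. Its NT values thus spread more widely than the difference of the means. MRPS18B, the largest fall of set 1, stood at 164, 168, 181 and 172 TPM in HUWE1 siRNA set 3, against 193, 184, 183 and 186 TPM in NT siRNA sets 2 and 3, a log2 fold change of -0.13 that was not called (limma adjusted p = 0.0679) although the groups did not overlap.

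In the second table fold changes were lower for transcripts richer in GC. Spearman's rho between log2 fold change and transcript GC content over the 78 genes was -0.54 in set 2 and -0.57 in set 3, 2 comparisons with the same controls, and -0.08 in set 1. In set 3 the median log2 fold change was -0.09 over the 39 genes richest in GC and 0.02 over the other 39. Between control libraries alone, NT siRNA sets 2 and 3 replicate 1 minus replicate 4, the median log2 difference was 0.19 over the GC-rich genes and -0.02 over the others, with a rho of 0.45. These were the 2 control libraries that deviated most from their group mean over the MRP genes, with standard deviations of 0.185 and 0.196 (log2), against 0.0559 and 0.0653 for replicates 2 and 3. Without replicate 4 of these controls 13 members rose and 21 fell in set 3, where 37.2% of all genes tested were called, and without replicates 1 and 4 9 rose and 7 fell, where 20.6% were. Median transcript GC content was 51.46% over the MRPL genes and 47.32% over the MRPS genes. The part of base composition in the fold changes, and in the difference between the subunits, was not tested.

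**Figure D5:**
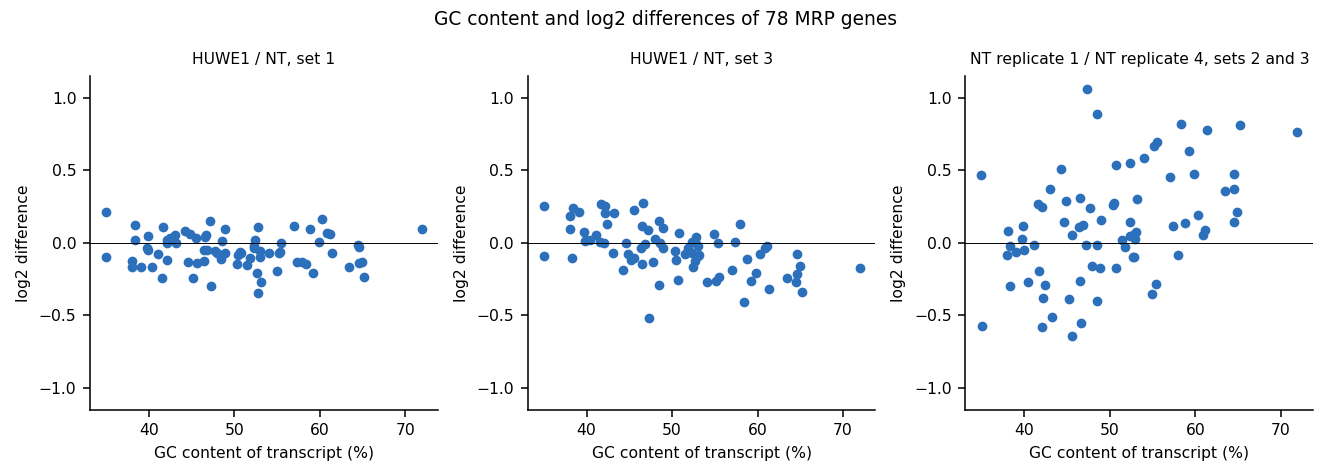
Log2 difference (y axis, the same range in each panel) of each of the 78 MRP genes against the GC content of its transcript in percent (x axis), for HUWE1 siRNA over NT siRNA in set 1, for the same in set 3, and for NT replicate 1 over NT replicate 4 of sets 2 and 3. The points slope downward in set 3 (rho -0.57), upward between the 2 control libraries (rho 0.45) and show little slope in set 1 (rho -0.08).

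The same lists were read in set 3, where 7.45% of all genes tested rose and 4.15% fell. Of the 21 named members and list genes called in set 3, 19 lost their call in at least 1 alternative. Only 2 kept it in all. Of 26 assembly and rRNA modification genes MRM1 (log2 fold change -0.51) and MPV17L2 (-0.36) fell, and MTG1 (0.16) and YBEY (0.26) rose. MRM1 and MTG1 were called in the same direction in set 1. Of 15 mitochondrially encoded genes 4 fell, MT-ND2 most with a log2 fold change of -0.37, and 0 rose in limma. At an unadjusted p under 0.05, 11 were lower and 1 higher, beside 14.6% and 19.9% of all genes. The mitochondrially encoded share of all TPM was 15.5% to 16.4% in HUWE1 siRNA set 3 and 16.6% to 18.3% in NT siRNA sets 2 and 3. Of the 11 transcription factors and coactivators 3 fell. PPRC1 and HCFC1 fell in set 3 as in set 1, with log2 fold changes of -0.45 and -0.35, and PPARGC1B, another coactivator of the PGC-1 family, had one of -0.47 in set 3 and 0.01 in set 1. Of the 15 translation factors 1 rose (GFM2). Of the 7 genes of mitochondrial DNA transcription and maintenance, TWNK and POLRMT, the mitochondrial RNA polymerase, fell by 0.62 and 0.16 on the log2 scale. TWNK stood at 62.8, 65.6, 49.1 and 48.1 TPM in HUWE1 siRNA set 3 (limma adjusted p = 0.0487). Its values in NT siRNA sets 2 and 3 were 115, 89.6, 94.2 and 57.4 TPM, which overlapped these.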

How the data were processed

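The authors deposited TPM values in 2 tables, set 1 in one and sets 2 and 3 in the other. Per the submitters' processing notes the genome was hg38. The sources used here name no aligner, counter or annotation. Libraries were made with a stranded poly(A) kit, per the labels. All per-sample columns were used. From the TPM values, log2(TPM + 1) was tested in limma 3.58.1 (R 4.3.3) with a variance trend and Benjamini-Hochberg adjustment over all genes that reached 1 TPM in 4 or more of the table's libraries. The second table was 1 fit of 12 libraries. The tables were never tested together. Members and lists were chosen with earlier results of these data known. The named genes are the 12 largest called rises and falls per set, the 4 highest and 4 lowest members, members called in more than 1 set, MRPS18A, MRPS18B, MRPS18C, MRPS30 and MRPS36, and in each list up to 4 members with the smallest p in sets 1 and 3. Other genes named here were chosen after their values were seen. Simulated data with known changes served to check the limma step. Alternatives were another pseudocount, filters, scalings, variance model, a replicate block, fewer groups in the fit and each library left out. Leaving out both outlying controls was added after the data were seen.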

Additional observations from a re-analysis of the deposited data

Results flagged for a closer look

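In 30 named genes and 5 groups of 4 libraries, 150 groups of values were screened for 1 library far from the other 3, and 8 were found. Chance flags about 1 in 20 such groups, so 8 of 150 is near what it gives. In HUWE1 siRNA set 1, MRPL13 was 22.4 TPM in replicate 2 and 24.2 to 24.5 TPM in the others. In HUWE1 siRNA set 2, MRPL47 was 72.3 TPM in replicate 1 (others 66.1 to 67.2), MRPS26 was 269 TPM in replicate 1 (others 291 to 294) and MRPL48 was 21.9 TPM in replicate 4 (others 23.4 to 23.6). In HUWE1 siRNA set 3, MRPL51 was 351 TPM in replicate 2 (others 326 to 329.5). Among the controls, MRPL14 was 388 TPM in NT siRNA set 1 replicate 4 (others 374 to 376), MRPS5 was 40.7 TPM in NT siRNA set 1 replicate 2 (others 44.2 to 44.5), and MRPL9 was 168 TPM in NT siRNA sets 2 and 3 replicate 4 (others 155 to 157).

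For MRPL1 and MRPL21 every HUWE1 siRNA library lay above the controls in set 3 and below them in set 1. The log2 fold changes were 0.21 in set 3 and -0.16 in set 1 for MRPL1, and 0.13 in set 3 and -0.13 in set 1 for MRPL21. Both were called in set 1, whereas in set 3 MRPL21 was not called (limma adjusted p = 0.0523) and the call of MRPL1 was lost in 10 of 16 alternatives. The difference between the sets was not tested.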

How the results depend on the processing

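The number of MRP genes called in set 1 stayed between 26 and 37 over all 15 alternatives (36 as reported), and the median log2 fold change of the MRP genes stayed between -0.07 and -0.04. Leaving out 1 library at a time gave 26 to 33 calls and a large minus small subunit difference of -0.0261 to 0.00167 there, so the sign of that difference rests on single libraries. In set 2 and in set 3 against set 2 the count was 0 in every alternative. In set 3, with 5 calls as reported, the count was 1 with no filter on low values, 1 with no variance trend, 1 in a fit of only the 2 groups compared, 3 without mitochondrially encoded genes, 16 without NT siRNA sets 2 and 3 replicates 1 and 4, and 1 to 34 when 1 library was left out, 34 coming from leaving out NT replicate 4. The large minus small subunit difference of set 3 was -0.0758 to -0.0491 when 1 library was left out and -0.0559 without both of these controls. The cause of these shifts was not tested, other than that fewer libraries enter such fits. Libraries with the same replicate number did not deviate in the same direction throughout (correlations of -0.481 to 0.407), so the numbers were not taken as pairs. Replicates 1 and 4 of NT siRNA sets 2 and 3 correlated at 0.201 and 0.407 with those of HUWE1 siRNA set 3. With those of HUWE1 siRNA set 2 the correlations were -0.427 and -0.481. With a replicate block 30 members were called in set 1, 0 in set 2 and 2 in set 3. No called value reversed, and 57 values that were not called changed sign in some alternative. Counting depth is unknown for TPM.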
